A study of Mus musculus with 41 samples.

Results

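The mouse genes that encode histones were followed through ribosome profiling and RNA-seq of embryos, cerebella and fibroblasts in which *Hbs1l*, *Pelo* or *Upf2* was targeted. Members were taken by symbol: every gene with a protein-coding transcript whose symbol begins with Hist1 to Hist4, H1f, H2a, H2b, H3 or H4. This gave 100 genes of the 22438 in the footprint values. By symbol, 64 were replication-dependent genes, 9 were variants and 27 were germline genes of testis and oocyte. Replication-dependent genes comprised 5 H1, 17 H2A, 17 H2B, 12 H3 and 13 H4 genes, of which 51 lay on chromosome 13, 10 on chromosome 3, 2 on chromosome 11 and 1 on chromosome 6.

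Histones are the proteins around which DNA is wound. H2A, H2B, H3 and H4 form the core of the nucleosome, and H1 binds the linker DNA between nucleosomes. Replication-dependent genes lie mostly in clusters, have no introns and are transcribed in S phase, when new DNA must be packed. Their mRNAs do not end in a poly(A) tail but in a short stem-loop. It is bound by SLBP, which serves both 3′ end formation and translation, and these mRNAs are degraded quickly when DNA synthesis stops, in a pathway that needs UPF1. Variants, such as H3.3 from *H3f3a* and *H3f3b* or H2A.Z from *H2az1* and *H2az2*, are mostly made from polyadenylated mRNAs throughout the cell cycle. HBS1L and PELO form the complex that rescues ribosomes stalled on an mRNA, and UPF2 acts with UPF1 in nonsense-mediated decay.

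Ribosome protected fragments (RPFs) were sequenced in 30 libraries and poly(A)-selected RNA in 11. Whole embryos at E8.5 on C57BL/6NJ were *Hbs1l*-/- or Wildtype, with 3 replicates per genotype and 5 embryos pooled in each. Cerebella at P14 on C57BL/6J came from 3 Atoh-Cre; *Hbs1l* cKO and 3 Atoh-Cre; *Hbs1l* +/+ mice. By the study's methods the cKO mice had a floxed and a null allele of *Hbs1l* and were n-Tr20 B6J/B6J, an allele that impairs an arginine tRNA of the nervous system. Cre acts there in granule cell precursors, so that other cells of the cKO cerebellum had a null allele and kept the floxed one. Primary mouse embryonic fibroblasts (MEFs) on C57BL/6 carried CAG-Cre ER and conditional alleles of *Hbs1l*, *Pelo* or *Upf2*, or CAG-Cre ER alone. *Hbs1l* MEFs, too, had a null allele beside the floxed one. MEFs were n-Tr20 B6J/B6J as well, and mutant and control MEFs alike received tamoxifen (4-OHT) at 1 µM for 48 hours. Each MEF mutant had 3 RPF libraries and 3 control libraries from its own sequencing pool, and RNA came from 3 control, 3 *Hbs1l*-/-, 2 *Pelo*-/- and 3 *Upf2*-/- cultures.

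RPF libraries held 2.63 to 25.6 M counts and RNA libraries 22.7 to 86.4 M. Control RPF libraries with the same number in a pair of pools differed by 1.10 to 1.19 times the counting noise (chi-square per degree of freedom over genes), against 4.06 to 12.6 times between numbers of one pool. Control libraries of the 3 MEF RPF comparisons were therefore treated as coming from the same cultures, and the 3 RNA comparisons share their controls outright, so values are set side by side and not taken as independent. RPFs of *Hbs1l* were at 2.16 to 6.93 CPM (counts scaled by TMM to a common library total) in *Hbs1l*-/- embryos against 38.2 to 45.2, at 10.5 to 12.4 in cKO cerebella against 30.2 to 36.2, and at 1.72 to 2.96 in *Hbs1l*-/- MEFs against 37.5 to 45.4. Those of *Pelo* were at 2.29 to 3.42 in *Pelo*-/- MEFs against 36.7 to 44.3. RPFs of *Upf2* were higher in the MEFs labelled *Upf2*-/- (128 to 134 CPM) than in their controls (56.0 to 66.7). A count over the whole gene does not check loss of the targeted exon, and these are called the MEFs labelled *Upf2*-/- throughout. Defining markers were present: *Col1a1* of fibroblasts was at 13760 CPM or more in every MEF library and *Calb1* of Purkinje cells at 1120 or more in every cerebellum.

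The 3′ end of each member was read from Gencode M21 transcripts on GRCm38, the build of the deposited values. The letters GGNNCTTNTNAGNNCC were searched on the transcript strand after the stop codon. Sites of genes on which the results turn are shown with 5 flanking bases on each side, because this short element sets the class apart and varies little between histone types. Capitals mark the stem-loop, and bases are given 5′ to 3′ on the strand of the gene.
*H1f2*, linker histone, chr13:23739507-23739532, + strand: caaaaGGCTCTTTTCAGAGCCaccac
*H2ac4*, core H2A, chr13:23751567-23751592, + strand: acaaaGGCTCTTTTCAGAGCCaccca
*H2bc3*, core H2B, chr13:23747198-23747223, + strand: ccaaaGGCTCTTTTAAGAGCCaccca
*H3c1*, core H3, chr13:23761885-23761910, - strand: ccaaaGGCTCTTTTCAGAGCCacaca
*H3c3*, core H3, chr13:23745042-23745067, - strand: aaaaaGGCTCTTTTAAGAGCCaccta
*H4c4*, core H4, chr13:23581945-23581970, + strand: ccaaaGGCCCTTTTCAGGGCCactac
*H4c14*, core H4, chr3:96262934-96262959, - strand: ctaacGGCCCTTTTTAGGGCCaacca
*H4f16*, core H4 outside the clusters, chr6:136803993-136804018, - strand: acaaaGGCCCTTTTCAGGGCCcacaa
*H2ax*, a variant, chr9:44335235-44335260, + strand: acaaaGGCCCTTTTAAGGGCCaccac

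The stem-loop stood after the stop codon in 45 of the 64 replication-dependent genes, namely 3 of 5 H1, 11 of 17 H2A, 10 of 17 H2B, 9 of 12 H3 and 12 of 13 H4 genes. It began 22 to 59 bases after the stop codon, with a median of 32. In 15 of the other 19 genes, among them *H1f5*, *H2bc18* and *H3c11*, the annotated model itself ended within 50 bases of the stop codon. The 4 with longer models and no match were *H2bc4*, *H2bc21*, *Hist1h2bq* and *Hist1h2br*. There were 8 distinct forms. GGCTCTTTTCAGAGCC was held by 26 genes, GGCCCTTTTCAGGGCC by 7 and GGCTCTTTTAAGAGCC by 5. In 22 genes the model ran on for over 100 bases past the stem-loop, as in *H4f16* with 2445 bases. Among the variants *H2ax* and *H2bfm* held the letters, as did the germline gene *H1f6*. Of all 21901 protein-coding genes, 0.621% held them anywhere in a coding transcript.

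**Figure D1:**
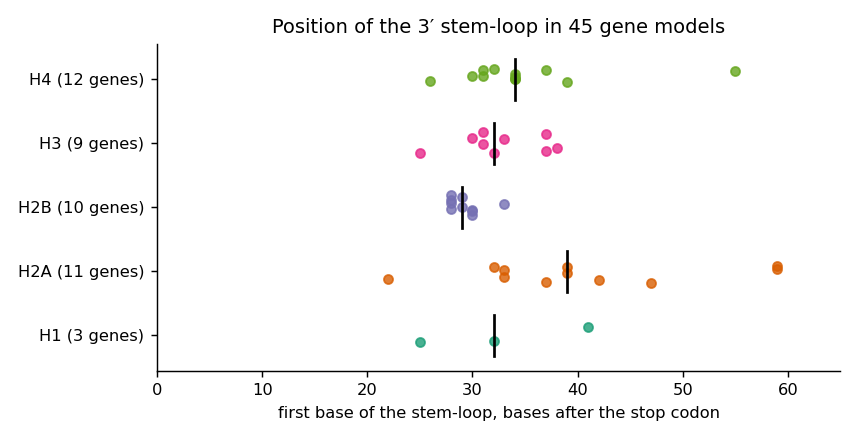
Each point is the start of the stem-loop in one of 45 replication-dependent gene models, in bases after the stop codon, by histone type, with the median of each type marked. All points lie between 22 and 59 bases, with medians from 29 in H2B to 39 in H2A.

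Many members are near copies of each other, which limits what a count per gene can say. Cut into words of 28 bases, about the length of a footprint, a replication-dependent gene had a median of 11.4% of its coding words to itself. The share ran from 0 to the 99.2% of *H1f1*, and for 22 genes it was under 10%. H1 genes (63.8% or more) and *H4f16* (97.5%) were among the most distinct, while *H2ac18* and *H2ac19* shared all their words and *H2ac12* shared 85.4% of its words with *Hist1h2ap*. Among the variants *H3f3a* kept 5.9% and *H2az1* 12.1% to themselves. kallisto divides RNA reads that fit several copies between them. How the RPF counting treated such reads is not given in the sources used here, and genes with no word of their own still held counts, so single values of genes under 10% are uncertain. All words of *H2aw* also lie in *Trim17*, which overlaps it, and all those of *H2ac18*, *H2ac19*, *H3c14* and *H3c15* lie in *Gm20634* too.

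In control samples, replication-dependent genes took a larger part of all footprints in embryos than in cerebella or MEFs. Their summed share of RPF counts was 4.10% ± 0.228 (SD, n = 3) in Wildtype embryos, 0.497% ± 0.0925 (SD, n = 3) in control cerebella and 0.476% ± 0.0654 (SD, n = 3) in the control MEFs of the *Hbs1l* pool. Variants together took 0.200%, 0.0902% and 0.0389%. Footprints were above 0 in all 30 libraries for 61 of the 64 replication-dependent genes and 7 of the 9 variants. The 5 highest genes made up 28.2% of the class in Wildtype embryos, 38.5% in control cerebella and 25.8% in control MEFs.

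The order of RPF levels was compared per kb of coding sequence. In Wildtype embryos *H2bc18* led with 6470 ± 507 CPM per kb (SD, n = 3), followed by *H4c4* with 4749 ± 264, *H4c14* with 3822 ± 363, *H1f3* with 3039 ± 254 and *H1f1* with 3028 ± 187. *H1f3* and *H1f1* lay within their spread of each other. In control cerebella *H4c14* led with 1372 ± 332, before *H2aw* with 953 ± 144, *H4c4* with 915 ± 223, *H4c8* with 886 ± 122 and *H4c3* with 853 ± 346. The ranges of each neighbouring pair over libraries overlapped, although *H4c14* was above *H2aw* in every library. The variants *H3f3b* (719.8 ± 253) and *H1f0* (412 ± 75.1) were among the 9 highest members there. In control MEFs, averaged over the 3 pools, the order was *H4c4* (958 ± 112), *H2bc18* (914 ± 169.8), *H4c14* (703 ± 76.0), *H4c8* (620.2 ± 73.8) and *H1f5* (572 ± 90.6). The ranges of each neighbouring pair over the 3 control numbers overlapped, although from *H2bc18* on the order was the same in every number.

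**Figure D2:**
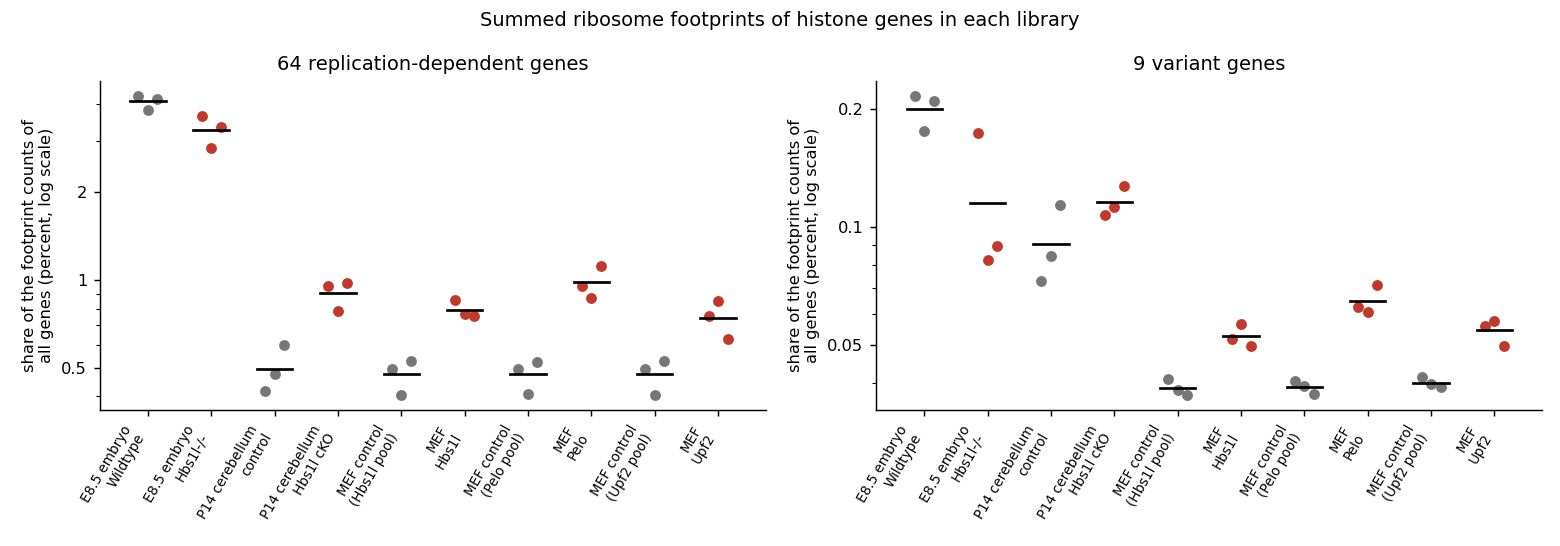
Each point is one RPF library, and the y axis is the summed share of all footprint counts, in percent, on a log scale, on the replication-dependent genes and on the variants, by group, with bars at group means. The replication-dependent share is lower in all *Hbs1l*-/- embryo libraries (2.84% to 3.66%) than in Wildtype (3.84% to 4.28%) and higher in all mutant cerebellum and MEF libraries than in their controls.

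In *Hbs1l*-/- embryos, RPFs of replication-dependent genes took a smaller share. It was 3.66%, 2.84% and 3.35% in the mutant libraries and 4.28%, 3.84% and 4.18% in Wildtype, without overlap, a ratio of 0.831 between scaled sums. Of 60 genes tested, 4 fell and none rose past an adjusted p of 0.05 in edgeR's quasi-likelihood test, where 0.862% of all 11485 genes tested were called higher and 0.897% lower. In the same test 34 of them had an unadjusted p under 0.05, as had 18.7% of all genes, and DESeq2 called 12 lower, beside 1.75% of all genes. The median log2 fold change was -0.40 against 0.01 over all genes, and 48 genes had a negative value. By type the median was -0.65 in H4, -0.63 in H3, -0.42 in H1, -0.32 in H2A and -0.09 in H2B genes. Which genes passed hung on single libraries. Without *Hbs1l*-/- replicate 1 there were 35, with 29 lower and 6 higher, without Wildtype replicate 3 there was 1, and without *Hbs1l*-/- replicate 2 or 3 or Wildtype replicate 1 or 2 there was none. Here and below, the share of all genes called was not computed for fits without a library. In bulk samples such as these, fewer cells of a type and less RNA per cell cannot be told apart.

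*H3c3*, a core H3 gene, was at 646, 559 and 648 CPM in Wildtype and 458, 228 and 312 in *Hbs1l*-/- embryos. The groups did not overlap, and the log2 fold change was -0.93 ± 0.21, adjusted p = 0.0425 (± SE here and below). *H2ac18* (-3.25 ± 0.74, adjusted p = 0.0439), *Hist1h2ao* (-2.78 ± 0.61, adjusted p = 0.0401) and *Hist1h4m* (-1.84 ± 0.35, adjusted p = 0.0233) were called as well. None of these 3 has a coding word of its own, and their mutant libraries were scattered, for instance 28.1, 1.37 and 0 CPM of *H2ac18* against 147, 104 and 66.5 in Wildtype. Among the most abundant genes, *H2bc18* was at 2637, 2254 and 2446 CPM in Wildtype and 1961, 2012 and 2111 in mutants (-0.30 ± 0.15, adjusted p = 0.281). *H4c14* was at 1211, 1057 and 1275 CPM against 1102, 573 and 631 (-0.65 ± 0.21, adjusted p = 0.128). Linker histone *H1f2* was at 1671, 1299 and 1500 CPM in Wildtype and 1380, 964 and 882 in mutants (-0.51 ± 0.18, adjusted p = 0.162).

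Variants in embryos showed a split between mutant libraries. *H2ax*, the variant that is phosphorylated around DNA breaks, was at 1075, 801 and 1072 CPM in Wildtype and 842, 329.9 and 301 in *Hbs1l*-/- embryos (-1.04 ± 0.30, adjusted p = 0.0978). Replicate 1 lay within the Wildtype range and the other mutants far below it. *H2aj* was at 44.6, 42.6 and 25.9 CPM against 25.3, 9.23 and 13.03 (-1.25 ± 0.32, adjusted p = 0.0651). *H1f0*, a linker variant that accumulates in cells leaving the cycle, was at 162, 147 and 145 CPM against 174, 155 and 162, with overlap. None of the 7 variants tested passed the adjusted threshold in edgeR, 5 had an unadjusted p under 0.05, and DESeq2 called 2 lower. Without *Hbs1l*-/- replicate 1, edgeR called 6 lower. Markers of other cells moved with genotype. Summed RPFs of the 3 trophoblast markers were 40.2 to 129 CPM in mutants and 0.893 to 2.88 in Wildtype, with no marker at 0 in all libraries of a group. *Prl3d1* and *Prl2c2* were called higher. At these Wildtype levels they passed the filter on low counts through the mutant libraries, so the calls add nothing to the values. The 7 embryo markers, which include embryonic globins, summed to 2545 to 6708 CPM in mutants and 8660 to 11040 in Wildtype. *Hba-x* was called lower among them, and none was at 0. Of the 2 endothelial markers *Pecam1* was called higher (1.27 ± 0.18, adjusted p = 0.00368), and they summed to 177 to 338 CPM against 130.1 to 139 in Wildtype. Among the 6 fibroblast markers *Col1a1* and *Col3a1* were called lower (-0.88 ± 0.19 and -1.34 ± 0.22) and 4 had an unadjusted p under 0.05, with sums of 438 to 605 CPM against 615 to 705. The muscle marker *Des* was called lower (-1.06 ± 0.22), and the other one, *Myod1*, was at 0 in all Wildtype libraries. The part of these cells in the histone values was not tested.

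In cKO cerebella RPFs of replication-dependent genes rose. They took 0.953%, 0.783% and 0.981% of the counts in cKO mice and 0.417%, 0.476% and 0.598% in controls, a ratio of 1.71 between scaled sums. Of 64 genes tested, 29 rose and none fell in edgeR, where 0.407% of 14504 genes were called higher and 0.0552% lower, and 52 had an unadjusted p under 0.05, as had 13.6% of all genes. DESeq2 called 46 higher, beside 2.28% of all genes higher and 1.48% lower. The median log2 fold change was 1.27, and 63 of the values were positive. Genes called were 4 of 5 H1, 8 of 17 H2A, 8 of 17 H2B, 7 of 12 H3 and 2 of 13 H4 genes. By position they were 28 of the 51 on chromosome 13 and 1 of the 10 on chromosome 3, with medians of 1.38 and 0.62. The number called was 0 without cKO replicate 1, cKO replicate 3 or control replicate 2, 1 without control replicate 1 and 47 without control replicate 3, while the median stayed at 1.15 to 1.35.

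*H2ac8*, a core H2A gene, was at 12.9, 12.9 and 14.2 CPM in control cerebella and 50.5, 34.5 and 42.2 in cKO mice (1.66 ± 0.15, adjusted p = 0.00992). *H2ac13* was at 13.2, 12.6 and 16.5 CPM against 50, 35.6 and 49.8 (1.67 ± 0.17, adjusted p = 0.0118). In both genes every cKO library lay well above every control. *Hist1h2bp*, *H2bc12* and *H3c15* rose by 1.89, 1.75 and 1.73 on the log2 scale. *H1f5* was at 93.1, 104 and 119 CPM in controls and 384, 200.1 and 309 in cKO mice (1.49 ± 0.22, adjusted p = 0.0382). *H3c1* was at 24.6, 31.5 and 32.5 CPM against 93.7, 52.0 and 99.9 (1.46 ± 0.23, adjusted p = 0.0454). The groups stood apart in both, with replicate 2 the lowest of the cKO mice. *H2bc18* was at 219, 243 and 284 CPM against 513, 399 and 522 and just missed the threshold (0.93 ± 0.15, adjusted p = 0.0508).

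None of the 5 genes highest per kb in control cerebella was called in edgeR. *H4c14* was at 338, 396 and 538 CPM in controls and 427, 493 and 517 in cKO mice (0.17 ± 0.19, adjusted p = 0.737). *H2aw* was at 322, 359.8 and 433 CPM against 395, 394 and 416 (0.11 ± 0.14, adjusted p = 0.789), and *H4c4* at 220.4, 271 and 357 against 404, 386 and 442 (0.53 ± 0.18, adjusted p = 0.251). *H4c14* and *H2aw* overlapped between genotypes. *H4c8* had a log2 fold change of 0.50 ± 0.15, adjusted p = 0.189 and *H4c3* one of 0.37 ± 0.25, adjusted p = 0.571. Within the class, H4 genes made up 37.9% ± 1.81 of the footprints in controls and 30.9% ± 3.52 in cKO mice, and H3 genes 6.98% ± 0.0276 and 9.70% ± 1.39 (SD, n = 3 each). Of 8 variants tested *H2ax* rose, from 58.0, 56.9 and 57.5 CPM to 114, 85.0 and 124 (0.90 ± 0.14, adjusted p = 0.0482). No variant was called without cKO replicate 1 or 3 or control replicate 1 or 2, and 2 were called without control replicate 3. *H3f3b*, which encodes H3.3, was at 213, 257 and 410.3 CPM in controls and 325, 350.2 and 350.4 in cKO mice, with overlap.

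Markers of granule cell precursors, the cells in which Cre acts, moved with the cKO. The 4 markers summed to 49.4 to 64.5 CPM in controls and 100.2 to 128 in cKO mice, and none was at 0 in all libraries of a group. *Barhl1* was called higher (1.02 ± 0.14, adjusted p = 0.0377), *Mycn* was at 17.8 to 22.3 CPM against 30.7 to 48.8 and *Atoh1* at 1.60 to 2.096 against 3.61 to 7.45, while *Gli1* had a log2 fold change of -0.08. Of 21 S phase genes *Tk1* (1.69 ± 0.24) and *Rrm2* (1.05 ± 0.17) rose, both of which serve nucleotide supply, beside 0.407% of all genes called higher. DESeq2 called 14 of the 21 higher, beside 2.28%, and the median of the list was 0.95. None of the 7 markers of mature cerebellar cells was called in edgeR, 4 had an unadjusted p under 0.05 and DESeq2 called 2 lower. They summed to 6574 to 7404 CPM in controls and 5341 to 6011 in cKO mice, with none at 0. *Calb1* was at 1292 to 2734 CPM in controls against 1120 to 1294, and *Gabra6* of mature granule cells at 460.1 to 944 against 284 to 408. Only the latter pair of ranges did not overlap. Of the 2 muscle markers *Myod1* was called higher, at 1.33 to 1.88 CPM in controls and 4.91 to 9.20 in cKO mice, and the sum of both was 3.57 to 6.06 against 6.72 to 10.9. The part of these cells in the histone values was not tested.

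In *Hbs1l*-/- MEFs RPFs of most replication-dependent genes rose. The class took 0.855%, 0.766% and 0.752% of the counts against 0.497%, 0.403% and 0.529% in controls, a ratio of 1.62 between scaled sums. Of 60 genes tested, 48 rose and none fell in edgeR, with 50 at an unadjusted p under 0.05, where 17.3% of 12051 genes were called higher, 16.7% lower and 43.8% had such a p. All 5 H1 and all 14 H2A genes tested rose, as did 11 of 12 H3, 10 of 13 H4 and 8 of 16 H2B genes. The median log2 fold change was 0.67.

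*H1f5* was at 410, 311 and 429.5 CPM in controls and 831, 776 and 756 in *Hbs1l*-/- MEFs (1.05 ± 0.10, adjusted p = 7.43e-06). *H2bc18* was at 357, 273 and 407 CPM against 686, 597 and 621 (0.89 ± 0.11, adjusted p = 6.21e-05), and *H4c14* at 221, 195 and 237 against 408, 379 and 329 (0.79 ± 0.09, adjusted p = 2.54e-05). The groups stood apart in all 3 genes. *H3c1* was at 96.8, 85.1 and 119 CPM in controls and 170.2, 164 and 157 in mutants (0.72 ± 0.10, adjusted p = 0.00014). *H3c11*, the other most abundant H3 gene of MEFs, was at 106, 97.9 and 120.2 CPM against 167, 169.6 and 135 (0.55 ± 0.10, adjusted p = 0.000746). *H2ac4* was at 155, 133 and 166 CPM against 212, 216 and 220.5 (0.53 ± 0.08, adjusted p = 0.000226), again without overlap. *H2ac18*, *H3c15*, *H4c11* and *H1f1* rose by 1.41, 1.26, 1.24 and 1.11 on the log2 scale, of which *H2ac18* was at no more than 4.19 CPM. *H2ac18* lost its call without mutant replicate 1 or 2 or control replicate 1 or 3 (1.08 to 1.42), and *H3c15* without mutant replicate 2 or control replicate 1 or 2 (0.74 to 1.26). Among genes that were not called, singled out after their values were seen, *H2bc4* was at 65.7, 68.0 and 71.0 CPM in controls and 78.5, 48.4 and 54.0 in mutants (-0.15 ± 0.14, adjusted p = 0.44). *Hist1h4m*, of which every coding word is shared, was scattered over 2.80, 8.58 and 82.7 CPM in mutants against 29.98, 28.2 and 37.5 in controls.

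Nearly the whole class rose in *Pelo*-/- MEFs. Its share was 0.958%, 0.872% and 1.12% against 0.498%, 0.407% and 0.525% in controls, a ratio of 2.03 between scaled sums. Of 64 genes tested, 62 rose and none fell, against 23.0% higher and 21.2% lower of 12557 genes. The median log2 fold change was 1.03, with type medians between 0.93 in H4 and 1.17 in H3. The 2 genes not called were the H2B genes *H2bc21* and *H2bu2*. *H1f5* was at 408, 312 and 424 CPM in controls and 799.6, 718 and 893 in *Pelo*-/- MEFs (1.08 ± 0.12, adjusted p = 7.74e-05). *H4c14* was at 222, 188 and 237 CPM against 530.2, 419 and 546 (1.21 ± 0.12, adjusted p = 2.83e-05). *H3c3* was at 98.5, 101 and 90.3 CPM against 222, 222 and 258 (1.28 ± 0.08, adjusted p = 2.51e-06). All mutant values of these genes lay above all control values. *H2bc4* was called higher here, at 66.01, 61.1 and 74.4 CPM against 108, 86.6 and 102 (0.56 ± 0.10, adjusted p = 0.00145). *H3c14*, *H2ac18* and *Hist1h4m*, none of which has a coding word of its own, rose by 2.44, 2.29 and 1.81 on the log2 scale. *Hist1h2ao*, *Hist1h2br* and *Hist1h2ap*, which are among the genes called, passed the filter on low counts through the *Pelo*-/- libraries alone and so had to differ. They held 1 to 7, 3 to 4 and 4 to 8 reads per control library against 27 to 125, 25 to 52 and 13 to 46, and no fold is given for them.

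In the MEFs labelled *Upf2*-/- the class took 0.754%, 0.850% and 0.630% of the counts against 0.498%, 0.406% and 0.527% in controls, a ratio of 1.499 between scaled sums. Of 59 genes tested, 35 rose and none fell, with 39 at an unadjusted p under 0.05, where 22.3% of 12233 genes were called higher, 21.0% lower and 51.3% had such a p. The median log2 fold change was 0.52. Without replicate 2 of these MEFs 23 rose and 1 fell, and the median was 0.33, while without replicate 3 there were 41 and a median of 0.64. All 5 H1 genes rose, with 10 of 14 H2A, 9 of 11 H3, 8 of 13 H4 and 3 of 16 H2B genes. *H4f16*, the H4 gene on chromosome 6 whose coding sequence is almost all its own, was at 63.2, 59.98 and 63.7 CPM in controls and 187, 191 and 124 in these MEFs (1.44 ± 0.14, adjusted p = 2.02e-05). *H1f1* was at 244, 178 and 252 CPM against 514, 498 and 417 (1.09 ± 0.12, adjusted p = 5.47e-05). Both genes separated the groups, as did *H2ac18* (1.82 ± 0.34) and *Hist1h4m* (1.10 ± 0.09), which have no coding word of their own. *H3c1* did not, at 101, 85.9 and 124 CPM in controls and 100.4, 117 and 82.9 in mutants (-0.04 ± 0.14, adjusted p = 0.86). *H2bc3* was at 159, 145 and 205 CPM against 199, 231 and 172 (0.26 ± 0.13, adjusted p = 0.133), also with overlap.

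**Figure D3:**
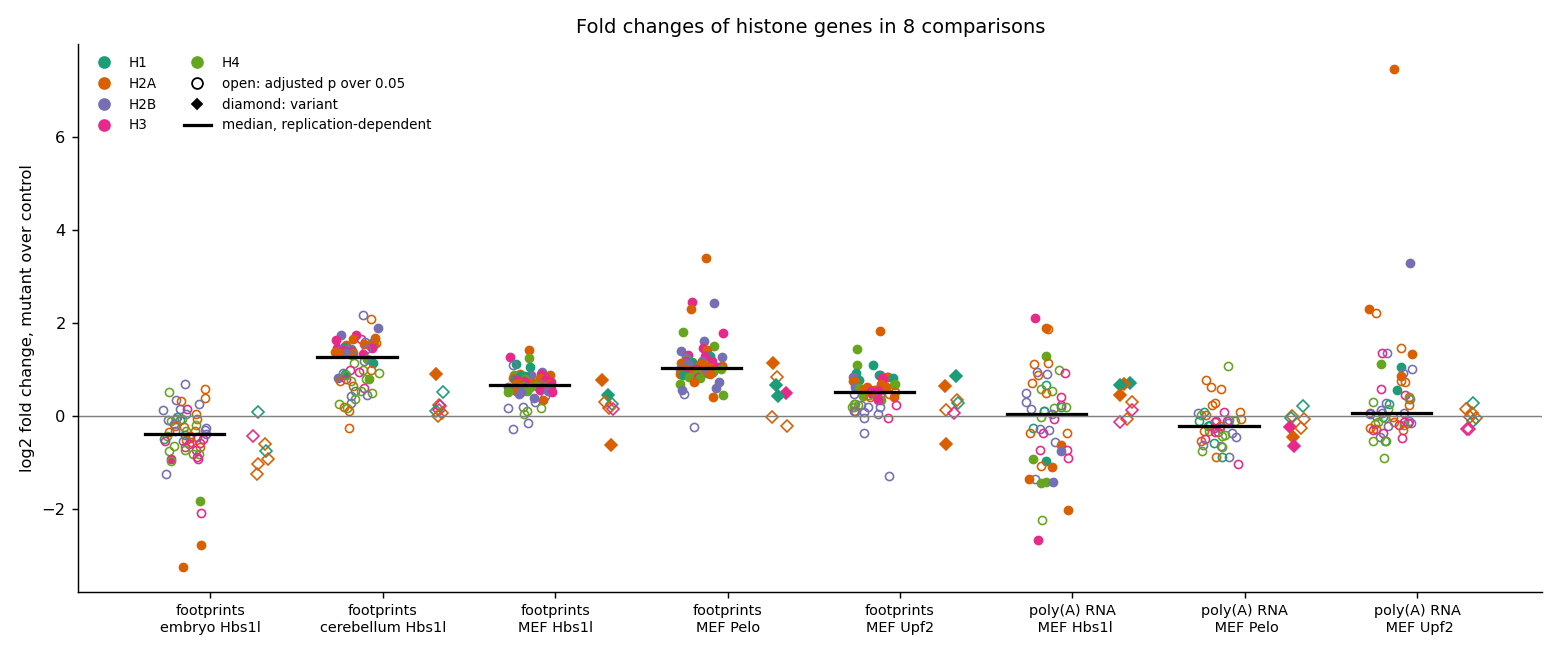
The y axis is the log2 fold change of mutant over control in 5 RPF and 3 poly(A) RNA comparisons, with 1 symbol per histone gene tested, circles for replication-dependent genes, diamonds for variants, filled where the adjusted p was at most 0.05 and coloured by histone type. Horizontal bars are medians of replication-dependent genes. Their footprint values lie mostly below 0 in embryos (median -0.40) and above 0 in cerebella (1.27) and in *Hbs1l*-/- (0.67), *Pelo*-/- (1.03) and *Upf2*-/- labelled (0.52) MEFs, and their RNA values spread to both sides of 0.

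The MEF values were also counted by how much sequence a gene has to itself. In *Hbs1l*-/- MEFs 35 of 42 genes with at least 10% of their words to themselves rose, with a median of 0.65, and 13 of 18 of the others, with a median of 0.70. For *Pelo*-/- MEFs these were 40 of 42 and 22 of 22. In the MEFs labelled *Upf2*-/- they were 26 of 42 and 9 of 17. H1 genes made up 27.8% ± 1.13 of the class in controls and 32.6% ± 0.787 in *Hbs1l*-/- MEFs, and 27.6% ± 1.05 in controls and 33.8% ± 2.21 in the MEFs labelled *Upf2*-/-. In *Pelo*-/- MEFs they made up 27.5% ± 1.28 and 28.7% ± 0.880 (SD, n = 3 throughout), within the spread between libraries.

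Variants in MEFs were split. *H2ax*, the one well-covered variant whose model carries the stem-loop, rose in each mutant. It was at 185, 188 and 155 CPM in controls and 290.4, 333 and 279.5 in *Hbs1l*-/- MEFs (0.78 ± 0.09, adjusted p = 2.77e-05). In *Pelo*-/- MEFs it was at 179, 186 and 161 CPM against 371, 353 and 425 (1.13 ± 0.09, adjusted p = 7.91e-06), and in MEFs labelled *Upf2*-/- at 188, 188 and 165 against 286, 281 and 267 (0.63 ± 0.07, adjusted p = 5.01e-05). *H1f0* rose by 0.44, 0.67 and 0.86 in the same order. *H2aj* fell from 64.2, 74.5 and 52.1 CPM to 41.9, 44.0 and 38 in *Hbs1l*-/- MEFs (-0.62 ± 0.12, adjusted p = 0.00142). It also fell from 67.4, 80.5 and 57.9 CPM to 38, 45.8 and 50.5 in those labelled *Upf2*-/- (-0.60 ± 0.13, adjusted p = 0.00328), and in *Pelo*-/- MEFs it was at 64.4, 77.0 and 54.0 against 55.6, 58.8 and 52.5, with overlap. *H3f3b* and *H1f10* rose in *Pelo*-/- MEFs (0.48 ± 0.07 and 0.44 ± 0.14). *H2az2*, an H2A.Z gene whose coding words are all its own, was between 13.8 and 24.9 CPM in the MEF libraries and was called in none of the 3 RPF comparisons.

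**Figure D4:**
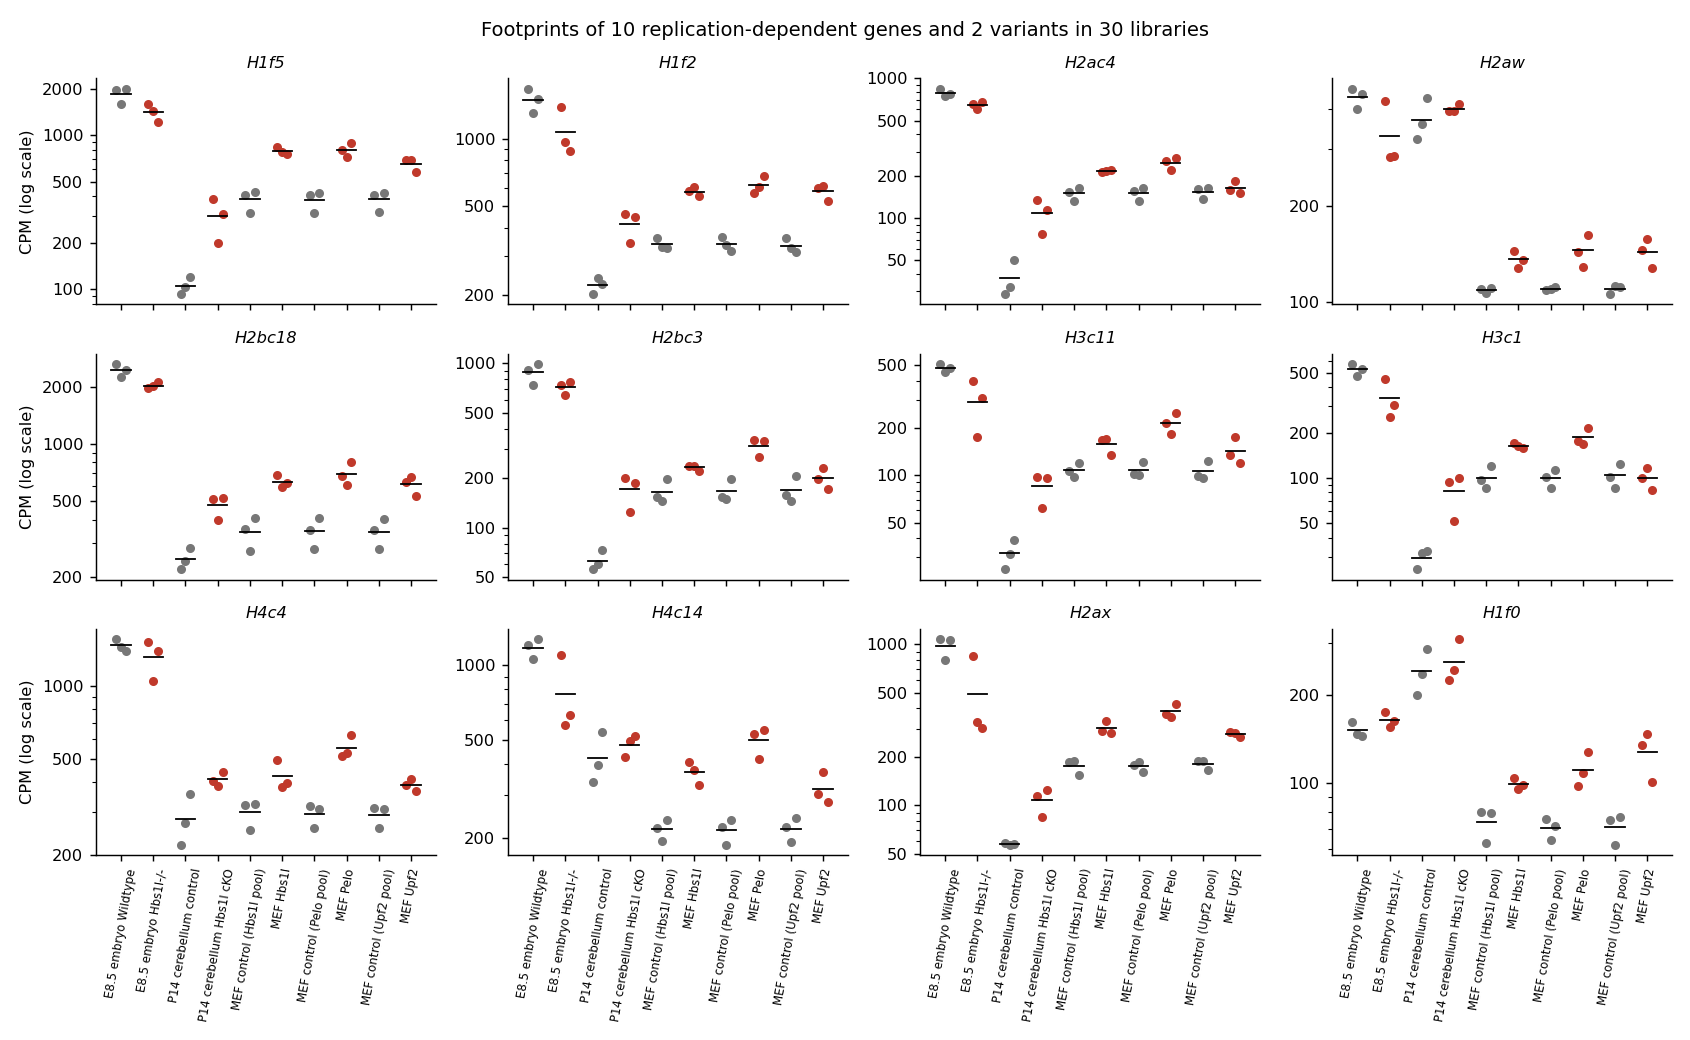
Each panel gives the RPF level (CPM, log scale) of 1 member in all 30 libraries by group, with controls in grey, mutants in red and a bar at the group mean. *H4c14* in cerebella overlaps between genotypes (338 to 538 CPM in controls, 427 to 517 in cKO mice), while *H1f5* separates them (93.1 to 119 against 200.1 to 384).

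Of the 27 germline genes, 23 had no count in any RPF library, 2 stayed under 1 CPM and 2 exceeded it. *H1f6*, the linker histone of spermatocytes, was at 9.60 to 16.6 CPM in Wildtype and 8.87 to 14.1 in *Hbs1l*-/- embryos and at no more than 1.58 in any other library. *H2ac1*, a testis H2A gene, was at 0.161, 0.306 and 0.162 CPM in controls and 2.86, 1.73 and 2.34 in MEFs labelled *Upf2*-/-, from 2 to 4 and 15 to 17 reads per library. It passed the filter on low counts through the labelled libraries alone, so no test of it is given.

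In poly(A) RNA the class was a small part of the library. Replication-dependent genes took 0.0331% ± 0.00966 of the estimated counts in control MEFs (SD, n = 3), and variants 0.0953% ± 0.00258. In *Hbs1l*-/- MEFs 3 of 53 replication-dependent genes rose and 11 fell, where 12.7% of 15318 genes were called higher and 10.4% lower. The median log2 fold change was 0.05. *H3c2* fell from 26.2, 22.1 and 11.2 TPM (transcripts scaled by length and library) to 1.69, 2.79 and 4.67 (-2.67 ± 0.42, adjusted p = 0.00347). *H2ac4* fell from 28.8, 25.1 and 10.1 TPM to 4.51, 3.90 and 7.46 (-2.02 ± 0.42, adjusted p = 0.0103), and *H4c8* from 24.1, 16.9 and 15.1 to 6.92, 6.40 and 8.19 (-1.42 ± 0.25, adjusted p = 0.00526). These 3 genes separated the groups in RNA, and the RPFs of *H3c2* were at 53.0, 49.6 and 50.9 CPM in controls and 99.4, 69.0 and 70.1 in the same mutant. *H2bc6* and *H4c1* fell by 1.43 and 1.44 on the log2 scale, and *H2ac15* rose by 1.89. *H3c10* and *H4c14*, also called higher, passed the filter on low counts through the mutant libraries alone, with 2 to 6 and 5 to 19 estimated reads per control library against 12 to 34 and 17 to 40. Control RNA replicate 3 stood apart for several members, for instance in *Hist1h2ap* with 273, 136 and 15 TPM over the controls. Without it the class median was -0.23, without mutant replicate 2 or 3 it was -0.02 or -0.15, and without control replicate 1 it was 0.30. *H2ac15* lost its call without mutant replicate 1 or control replicate 1 or 3 (1.41 to 1.78). The number called was 8 without *Hbs1l*-/- RNA replicate 1 and 9 without either *Hbs1l*-/- or control RNA replicate 2.

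Among *Pelo*-/- MEF libraries none of 44 replication-dependent RNAs was called in edgeR, where 15.5% of 14705 genes were called higher and 16.6% lower. At an unadjusted p under 0.05 there were 4, beside 44.4% of all genes, and DESeq2 called 1 lower, beside 16.1%. There are 2 *Pelo*-/- RNA libraries, and the number called was 3 without control RNA replicate 3 and 1 without control replicate 2. In MEFs labelled *Upf2*-/- 8 of 56 RNAs rose and none fell, with 12 at an unadjusted p under 0.05, against 13.2% higher, 6.76% lower and 34.8% with such a p of 15983 genes. The part of the class that rose was near that of all genes. The number was 3 without replicate 3 of these MEFs, control RNA replicate 2 or control RNA replicate 3. *H2ac12*, a core H2A gene, was at 2.89, 2.61 and 0.244 TPM in controls and 114, 412 and 166 in these MEFs (7.46 ± 0.69, adjusted p = 5.14e-05). Its RPFs were at 30.7, 29.1 and 43.6 CPM against 46.4, 63.8 and 31.0 (0.48 ± 0.22, adjusted p = 0.0987), and the RNA of its near copy *Hist1h2ap* was at 264, 456 and 420.4 TPM in the same MEFs. The RNA separated the groups of *H2ac12* while the RPFs overlapped. *H2ac13* was at 4.36, 3.95 and 1.54 TPM in controls and 7.02, 21.3 and 13.97 in these MEFs (2.29 ± 0.46, adjusted p = 0.00657). *H2ac7*, *H4c14* and *H1f5* rose by 1.33, 1.12 and 1.05 from low levels, with no library above 4.08, 0.442 and 2.81 TPM. *H4c14* lost its call without any one library (1.02 to 1.21), *H2ac7* without replicate 1 or 3 of these MEFs or control RNA replicate 2 or 3 (0.93 to 1.49), and *H1f5* without replicate 3 of these MEFs or control RNA replicate 2 or 3 (0.89 to 1.05). The division of RNA reads between these copies is uncertain. The summed RNA of the class was 1.91 times that of controls in these MEFs, 1.15 times in *Pelo*-/- and 0.993 times in *Hbs1l*-/- MEFs, beside median log2 fold changes of 0.06, -0.22 and 0.05 over its genes. The sign of these medians hung on single libraries: in the labelled *Upf2*-/- MEFs it was -0.15 without control RNA replicate 3, and in *Pelo*-/- MEFs 0.09 without control RNA replicate 1. In the labelled *Upf2*-/- MEFs the higher sum lay mostly in H2A genes, to which *H2ac12* and *Hist1h2ap* belong. H2A genes together were at 249 ± 171 TPM in controls and 739 ± 237 in these MEFs (SD, n = 3 each), H2B genes at 138 ± 21.2 and 148 ± 25.9, and H1 genes at 60.5 ± 4.25 and 85.9 ± 7.89. H3 genes were at 45.7 ± 18.6 against 41.0 ± 10.2 TPM and H4 genes at 72.5 ± 10.2 against 66.5 ± 18.4, differences within the spread between libraries.

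Variant RNAs differed by genotype. In *Hbs1l*-/- MEFs *H1f10*, *H2ax*, *H1f0* and *H2az1* rose by 0.71, 0.69, 0.67 and 0.45. *H2ax* lost its call without any one mutant library or control replicate 2 (0.64 to 0.77). *H3f3a* fell in *Pelo*-/- MEFs from 292, 295 and 346 TPM to 212 and 208 (-0.65 ± 0.09, adjusted p = 0.0027), *H2az2* by 0.46 and *H3f3b* by 0.24 on the log2 scale. The calls of *H2az2* (-0.47 to -0.41) and *H3f3b* (-0.27 to -0.22) were lost without either mutant library or control replicate 3. *H2ax* RNA was at 105 and 97.6 TPM in *Pelo*-/- MEFs and 102, 112 and 68.7 in controls, with overlap, beside the rise of its RPFs. None of the 8 variant RNAs tested was called in MEFs labelled *Upf2*-/- in edgeR or DESeq2, and 2 had an unadjusted p under 0.05.

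Footprints and poly(A) RNA were set side by side in control MEFs, as RPF CPM per kb of coding sequence over RNA TPM. For mRNAs without a tail this ratio is not a translational efficiency, since the RNA counted is only the part that poly(A) selection kept. The median log2 ratio was 5.50 over 43 replication-dependent genes with at least 1 CPM per kb and 1 TPM, 0.63 over 7 variants and 0.96 over 10309 other genes. Of the 43, 34 lay above the 95th percentile of the other genes, and none of the variants did. *H2bc18* had 914 CPM per kb against 1.23 TPM, a log2 ratio of 9.54, and *H1f5* 572 against 1.25, a log2 ratio of 8.84. *H4c14*, at 703 CPM per kb, had 0.167 TPM, under the minimum for the ratio. *H1f2* stood lower with 527 CPM per kb and 55.6 TPM (3.25). *H2bc4* (177 CPM per kb, 112 TPM) and *H4c9* (43.0 and 23.6) lay near the median of other genes. The variant *H2ax*, with 413 CPM per kb and 94.3 TPM, had a log2 ratio of 2.13, and *H3f3b* one of 0.46. *Hist1h2ap* (-6.80) and *H2az1* (-6.71) lay far below, and both have few words of their own.

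**Figure D5:**
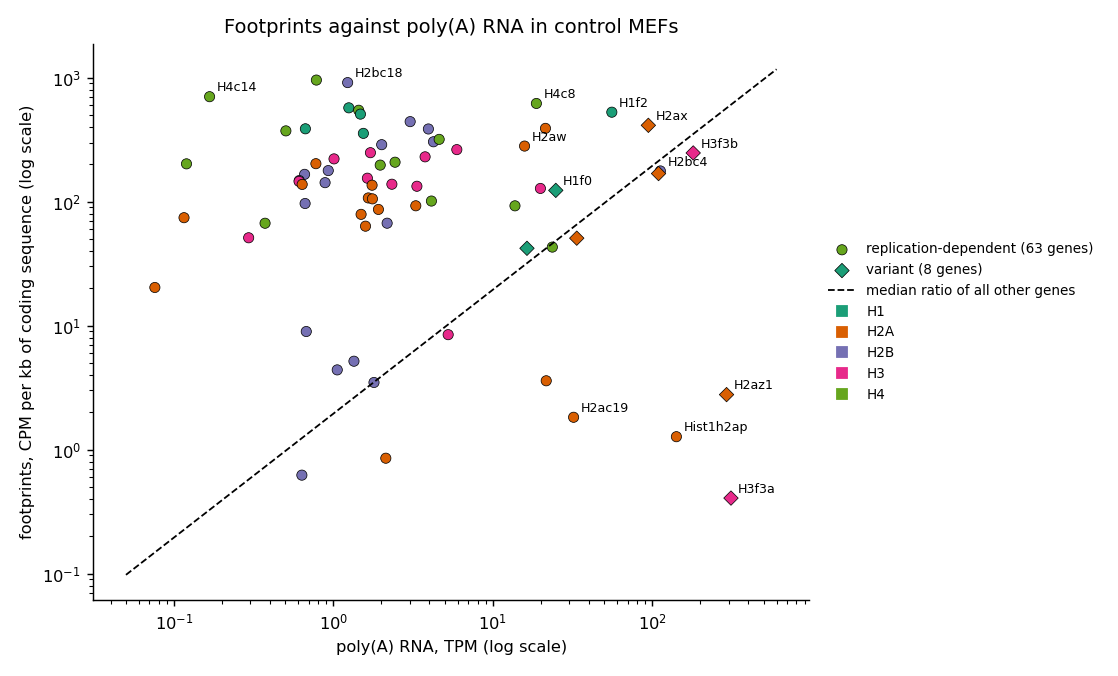
Each point is a histone gene in control MEFs, with poly(A) RNA in TPM on one axis and RPFs in CPM per kb of coding sequence on the other, both on log scales, by class and type. Of the 43 replication-dependent genes with at least 1 unit of both, 36 lie above the median ratio of other genes (log2 ratio 0.96), as do 3 of 7 variants.

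The change in RPFs relative to that in poly(A) RNA is the usual measure of translational efficiency (TE), and it was tested with the reservation above. The filter on low counts took both assays together, so genes could enter through their RPFs alone. Tested by itself, RNA of 53, 44 and 56 replication-dependent genes passed it in *Hbs1l*-/-, *Pelo*-/- and labelled *Upf2*-/- MEFs. TE of the remaining genes rests on RNA below that level. In *Hbs1l*-/- MEFs 8 of 63 replication-dependent genes rose and none fell, with 29 at an unadjusted p under 0.05, where 0.0832% of 13217 genes were called higher, 0.0378% lower and 16.3% had such a p. These were *H3c2* (3.29 ± 0.43, adjusted p = 0.0053), *H2ac4* (2.51), *H2ac6* (2.00), *H4c8* (1.95), *H2bc6* (1.81), *H1f3* (1.79), *H1f2* (1.08) and *H2aw* (0.98). All of them but *H1f2* were among those whose poly(A) RNA fell. *H2ac6* kept its call only without control RNA replicate 1 or 3 (otherwise 1.85 to 2.14), and *H2ac4* also without mutant RNA replicate 3 (otherwise 2.23 to 2.58). The number was 4 without RPF replicate 2 of the mutant or of the controls, and 5 without RPF replicate 1 or RNA replicate 2 of the mutant or RPF replicate 1 or 3 of the controls.

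TE in *Pelo*-/- MEFs rose in 29 of 64 replication-dependent genes and fell in none, with 43 at an unadjusted p under 0.05, against 21.3% higher, 19.3% lower and 48.8% with such a p of 13764 genes. The class median was 1.22, and *H1f1* had 2.13 ± 0.43, adjusted p = 0.00171. *Hist1h2bp* had a larger fitted value (2.65 ± 0.78) at no more than 0.799 TPM in *Pelo*-/- and control RNA, and lost its call without *Pelo*-/- RNA replicate 2 (1.796). *Hist1h2ao* and *Hist1h2br*, also called, had the few control footprints given above and at most 2.92 and 1.64 TPM. *H3c10*, listed at 0 TPM in both *Pelo*-/- RNA libraries, was also called, except without either of these libraries, and no fold is given for it. The number was 19 without *Pelo*-/- RNA replicate 1. Among variants *H2ax*, *H2az1*, *H3f3b* and *H1f0* rose in TE by 1.13, 1.11, 0.72 and 0.43. *H2az1*, which has few words of its own, was at only 0.776 to 1.27 CPM of RPFs in control MEFs, averaged over pools. In MEFs labelled *Upf2*-/- TE rose in 3 of 63 genes and fell in 2, against 7.41% higher and 10.3% lower of 13374 genes. Both parts of the class lay below those of all genes. *H2bc14* (2.31), *H1f1* (1.60) and *H1f3* (0.87) rose, and *H2ac12* (-7.07) and *H2ac13* (-2.07) fell. The RNA of *H2bc14* was too low to be tested by itself (0.659 TPM in control MEFs), and its RPFs rose by 0.84. The call of *H1f3* was lost without RPF replicate 1 or 2 or RNA replicate 2 of these MEFs or RPF control replicate 2 (0.72 to 0.85), and that of *H2ac13* without control RNA replicate 3 (-1.44). The number was 8 without RNA replicate 1 or RPF replicate 3 of these MEFs, or without control RNA replicate 3. The variant *H1f0* rose by 0.95 ± 0.19, adjusted p = 0.00419.

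The change with *Hbs1l* loss was compared between tissues as an interaction. Between embryos and cerebella 32 of 64 replication-dependent genes differed, all lower in embryos, where the difference was called upward in 0.422% and downward in 0.632% of 14707 genes. The median difference was -1.46 on the log2 scale. *H2ac8* differed by -2.26 ± 0.28, adjusted p = 0.00324 and *H3c3* by -2.32 ± 0.32, adjusted p = 0.00539. *H3c8*, *H3c10* and *Hist1h2bq* differed by -2.46, -2.28 and -3.35. *Hist1h2bq* kept its call only without *Hbs1l*-/- embryo replicate 1, cKO replicate 2 or control cerebellum replicate 3 (otherwise -3.54 to -3.08). In the embryo comparison it passed the filter on low counts through the Wildtype libraries alone. It held 13 to 14 reads per Wildtype and 3 to 20 per *Hbs1l*-/- embryo library. The number was 20 without Wildtype embryo replicate 1 or 3 or control cerebellum replicate 1, 21 without cKO replicate 1 or 3 or control cerebellum replicate 2, and 49 without *Hbs1l*-/- embryo replicate 1. Between embryos and MEFs 37 of 62 genes differed, again all lower in embryos, against 4.28% upward and 3.56% downward of 13142 genes, with a median of -1.02. *H1f5* differed by -1.46 ± 0.19, adjusted p = 0.000557, *H4c14* by -1.44 ± 0.26, adjusted p = 0.00363 and the variant *H2ax* by -1.81 ± 0.38, adjusted p = 0.00917. Strain, Cre and batch differ between the embryos and the other samples and cannot be told apart from the tissue.

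Between MEF mutants the 12 libraries of each interaction include 6 control libraries taken as 3 cultures sequenced in both pools, so they are not 12 independent cultures and the p-values are approximate. By this test the change in *Pelo*-/- MEFs exceeded that in *Hbs1l*-/- MEFs in 7 of 64 genes and was lower in none, against 3.45% upward and 2.05% downward of 12594 genes, with a median difference of 0.34. The largest were in *H2bc15* (0.96 ± 0.24), *H2bc6* (0.80 ± 0.15), *H3c10* (0.80 ± 0.18), *H3c6* (0.75 ± 0.18) and *H2bc11* (0.75 ± 0.16). *H2bc15* lost its call without 8 of the 12 libraries (0.78 to 1.006) and *H3c6* without 6 of them (0.64 to 0.76). The number was 3 without *Hbs1l*-/- replicate 3 or *Hbs1l* pool control replicate 1, and 4 without *Pelo* pool control replicate 1. *Pelo*-/- MEFs exceeded those labelled *Upf2*-/- in 16 of 64 genes and were lower in none, against 6.89% upward and 6.05% downward of 12747 genes, with a median of 0.56. The largest were in *Hist1h2bp* (1.43 ± 0.34), *H2bc15* (1.16 ± 0.28), *H3c6* (1.11 ± 0.18), *H2bc13* (1.05 ± 0.24) and *H3c7* (0.96 ± 0.20). The number was 9 without replicate 1 of the labelled MEFs or of their controls, 10 without labelled replicate 3 or *Pelo* pool control replicate 2, and 27 without labelled replicate 2. Between the labelled *Upf2*-/- and the *Hbs1l*-/- MEFs, *H4f16* (0.79 ± 0.18, adjusted p = 0.0171) and *H3c1* (-0.75 ± 0.20, adjusted p = 0.0389) differed of 61 genes, against 2.82% upward and 2.03% downward of 12403 genes. *H3c1* lost its call without 9 of the 12 libraries (-0.78 to -0.60), and *H4f16* without labelled replicate 2 or *Hbs1l* pool control replicate 1 (0.68 to 0.75). Neither was called without *Hbs1l* pool control replicate 1, and 1 was called without replicate 1 or 2 of *Hbs1l*-/-, replicate 1 or 3 of the labelled MEFs, *Hbs1l* pool control replicate 2 or *Upf2* pool control replicate 1 or 3.

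The mutant MEFs were also compared directly, 3 libraries against 3 with no controls, where the sequencing pool and the mutation cannot be told apart. *Pelo*-/- MEFs were higher than *Hbs1l*-/- MEFs in 28 of 64 replication-dependent genes and lower in none, where 9.5% of all genes were called higher and 6.01% lower. Against the MEFs labelled *Upf2*-/- they were higher in 37 of 64 and lower in none, beside 14% and 12.7% of all genes. The labelled MEFs were higher than *Hbs1l*-/- MEFs in 1 gene, *H4f16*, and lower in 8 of 60, beside 8.92% and 6.99%.

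Genes that make histone mRNAs, chaperone histones or degrade their mRNAs were described from lists. For reading their counts, 17.3%, 23.0% and 22.3% of all genes tested were called higher in RPFs of *Hbs1l*-/-, *Pelo*-/- and labelled *Upf2*-/- MEFs, and 16.7%, 21.2% and 21.0% lower. Among 15 genes of histone gene transcription and 3′ processing, 14 were tested in MEF RPFs, of which 8 rose and 1 fell in *Hbs1l*-/- MEFs, 7 rose in *Pelo*-/- and 6 rose in those labelled *Upf2*-/-. *Slbp*, which encodes the stem-loop binding protein, had log2 fold changes of 0.22 ± 0.08, adjusted p = 0.0528, of 0.47 ± 0.07, adjusted p = 0.000586 and of 0.52 ± 0.07, adjusted p = 0.00022 in this order. *Srrt*, which links the mRNA cap to 3′ processing, rose by 0.50, 0.52 and 0.63. Of 16 histone chaperones 12, 10 and 14 rose and none fell, among them *Nasp*, a chaperone of H3 and H4, by 0.75 ± 0.08, 0.61 ± 0.09 and 0.87 ± 0.09. Of 9 histone mRNA turnover genes 5, 4 and 6 rose, with *Upf1* at 0.32, 0.27 and 1.14. In poly(A) RNA of the 3 mutants, in the same order, 3, 1 and 1 genes of transcription and 3′ processing rose and 1, 4 and 0 fell. Of the chaperones 8, 4 and 3 rose and 1, 5 and 0 fell in RNA, and of the turnover genes 1, 1 and 1 rose and 1, 3 and 0 fell. Of all genes tested in RNA 12.7%, 15.5% and 13.2% were called higher and 10.4%, 16.6% and 6.76% lower. In embryos and cerebella none of the genes on these 3 lists was called in edgeR. At an unadjusted p under 0.05 there were 4, 4 and 1 in embryos, of which DESeq2 called 1 of the first list lower and 1 chaperone higher, beside 1.75% of all genes lower and 1.88% higher, and 0, 4 and 0 in cerebella, of which DESeq2 called 2 chaperones higher. The medians lay between -0.09 and 0.21.

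S phase genes rose in MEF footprints beside the histones. Of 21 genes 18, 18 and 19 rose in *Hbs1l*-/-, *Pelo*-/- and labelled *Upf2*-/- MEFs, against 17.3%, 23.0% and 22.3% of all genes, with medians of 0.54, 0.63 and 0.59, and *Ccne1* fell in *Pelo*-/- MEFs (-0.28 ± 0.09). *Mcm5*, a subunit of the replicative helicase, rose by 0.87, 0.95 and 0.89, and *Cdt1*, which loads that helicase, by 0.92, 1.11 and 0.98. In RNA 14 of the 21 rose in *Hbs1l*-/- MEFs, 1 rose and 6 fell in *Pelo*-/- MEFs and 1 rose in those labelled *Upf2*-/-, beside the RNA shares just given. In embryos none of the 21 was called in edgeR or DESeq2, 3 had an unadjusted p under 0.05, and their median was -0.02, beside -0.40 in replication-dependent histone genes. The 6 fibroblast markers summed to 23820 to 28460 CPM in *Hbs1l*-/-, 26580 to 32710 in *Pelo*-/- and 27750 to 29760 in labelled *Upf2*-/- MEFs, against 20680 to 21330, 20870 to 21340 and 20830 to 21460 in their controls, with none at 0. Of the 6, 5 were called higher in each mutant, and *Thy1* was called lower in the labelled MEFs. The 2 leukocyte markers summed to 26.2 to 38.3, 46.0 to 65.5 and 25.1 to 32.9 CPM in the 3 mutants, against 19.5 to 22.2, 19.6 to 22.3 and 19.6 to 22.8. *Ptprc* was called higher in each and *Cd68* in *Pelo*-/- and the labelled *Upf2*-/- MEFs. In *Pelo*-/- MEFs *Cdh5* of endothelium, *Gfap* of glia and *Sox2* of embryos were called higher as well, at no more than 5.17, 7.95 and 2.17 CPM in any of these libraries. *Cdh5* and *Gfap* failed the filter on low counts in the interaction between labelled *Upf2*-/- and *Hbs1l*-/- MEFs, whose controls are taken as the same cultures. They may have entered through the *Pelo*-/- libraries alone, in which case they had to be higher. *Mycn* was called lower in *Pelo*-/- (-0.87) and labelled *Upf2*-/- MEFs (-0.87), and *Des* and *Myod1* of muscle in *Hbs1l*-/- MEFs (-0.87 and -1.79). The 3 visceral endoderm markers, too low to be tested, summed to 0.839 to 55.4 CPM in *Pelo*-/- MEFs against 0 to 0.281. The part of these cells in the histone values was not tested.

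Promoters were read from RefSeq on GRCm38.p6 for 58 of the 64 replication-dependent genes and 8 of the 9 variants. ATTTGCAT (the octamer of H2B promoters), CCAAT and TATAAA were searched on both strands, and none of these contains another. CCAAT stood in 84.5% of replication-dependent promoters, in all of those of H1, H2A, H2B and H3 genes but in 25.0% of H4 promoters, against 41.1% of all 27025 promoters of the same length. TATAAA stood in 56.9% against 15.7%. The octamer stood in 40.0% of H2B and 37.5% of H2A promoters and in none of H1, H3 or H4, against 1.97% of all. An H2B and an H4 promoter of members that rose in *Hbs1l*-/- MEFs are printed, with matches to the 3 motifs in capitals. They differ in the octamer, which stands in *H2bc3* alone, while both hold CCAAT, on one strand or the other, and TATAAA.
*H2bc3*, chr13:23746484-23746783, + strand: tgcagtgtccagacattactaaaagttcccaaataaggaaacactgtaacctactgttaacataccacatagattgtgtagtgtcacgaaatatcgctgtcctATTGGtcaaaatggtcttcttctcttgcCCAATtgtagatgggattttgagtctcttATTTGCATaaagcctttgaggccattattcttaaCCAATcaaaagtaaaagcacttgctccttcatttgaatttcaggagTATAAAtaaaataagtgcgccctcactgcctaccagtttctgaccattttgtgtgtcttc
*H4c4*, chr13:23581318-23581617, + strand: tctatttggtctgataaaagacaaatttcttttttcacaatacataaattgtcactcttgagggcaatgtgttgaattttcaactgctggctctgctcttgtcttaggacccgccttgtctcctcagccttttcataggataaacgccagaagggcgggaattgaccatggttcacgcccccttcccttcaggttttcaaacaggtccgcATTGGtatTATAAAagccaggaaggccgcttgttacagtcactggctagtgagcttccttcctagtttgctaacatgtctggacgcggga
RPFs of *H2bc3* were at 154, 145 and 197 CPM in control and 239, 236 and 222 in *Hbs1l*-/- MEFs (0.51 ± 0.10, adjusted p = 0.00138), and those of *H4c4* at 322, 252 and 324 and 493, 380 and 397 (0.51 ± 0.11, adjusted p = 0.00223). In both genes the groups stood apart. A match of letters is a description and does not show that a factor binds there.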

How the data were processed

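Per the labels and the study's methods, RPF reads were trimmed, cleared of rRNA with Bowtie2 (version 2.2.3), aligned to mm10 with HISAT2 (version 2.1.0) and counted over coding sequence per gene with featureCounts, and the authors deposited these raw counts per library. For RNA the authors ran kallisto (version 0.42.4) and deposited estimated counts and TPM per transcript. Histone genes, which the study's methods removed from footprint and TE tests, were kept here.

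RNA values of transcripts were added up to genes, and the estimated counts then rounded. RPF CPM were scaled by TMM. Tests used edgeR (version 4.0.16, R version 4.3.3): quasi-likelihood F-tests after filterByExpr and TMM normalization, with Benjamini-Hochberg adjustment over all genes tested and a threshold of 0.05. For TE the model held both assays, each scaled by TMM on its own, and the interaction was tested, while differences between comparisons were interactions over 12 libraries. Between MEF mutants the 6 control libraries are taken as 3 cultures sequenced in both pools, so these libraries are not all independent and the p-values of those interactions are approximate. Mutant libraries were therefore also compared directly, without controls, an alternative chosen after seeing the data. The procedure was tested on simulated data. DESeq2 (version 1.42.0) was an alternative.

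Members, classes and gene lists were chosen with earlier results of these data known. Genes named are, in each comparison, up to 5 called members per direction whose groups do not overlap and with the largest change, the 2 most abundant replication-dependent genes of each type in control MEFs, and the variants. Others were chosen after their values were seen. MEF replicates are cultures and embryo replicates pools, so p-values measure the spread between these. Leaving out each library, other scalings, no filter and a replicate block were tried as well. Stem-loops and promoters come from Gencode M21 and RefSeq on GRCm38, while the deposited values use Gencode M24.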

Additional observations from a re-analysis of the deposited data

Results flagged for a closer look

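Each result here was set apart because the change with a mutation differed between 2 groups, by the edgeR interaction test, and none was an outlier within a group, since groups of at most 3 libraries were not tested for that. Between embryos and cerebella lacking *Hbs1l*, 32 replication-dependent genes differed, all lower in embryos, against 0.422% of all genes called upward and 0.632% downward. *Hist1h2bq* was at -3.35, *H3c8* at -2.46, *H3c3* at -2.32, *H3c10* at -2.28 and *H2ac8* at -2.26 on the log2 scale. *Hist1h2bq* held 13 to 14 reads per Wildtype and 3 to 20 per *Hbs1l*-/- embryo library. Between embryos and MEFs lacking *Hbs1l*, 37 differed, against 4.28% of all genes called upward and 3.56% downward. *Hist1h2ao* was at -5.02, *H2ac18* at -4.60, *H4c11* at -2.04 and *H3c8* at -1.76, and the variant *H2ax* at -1.81. *Hist1h2ao* and *H2ac18* have no coding word of their own, and they lost their calls without 4 (-4.96 to -4.79) and 7 (-4.93 to -4.31) of the 12 libraries. *Hist1h2ao* was at only 0.164 to 0.465 CPM in control MEFs, averaged over pools, so its value rests on few reads.

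Between *Pelo*-/- and *Hbs1l*-/- MEFs 7 differed, against 3.45% of all genes called upward and 2.05% downward. *H2bc15* was at 0.96, *H3c10* at 0.80, *H2bc6* at 0.80, *H3c6* at 0.75 and *H2bc11* at 0.75. Between MEFs labelled *Upf2*-/- and *Hbs1l*-/- MEFs 2 differed, *H4f16* at 0.79 and *H3c1* at -0.75, against 2.82% of all genes called upward and 2.03% downward. The class did not stand apart by this count, and *H3c1* lost its call without 9 of the 12 libraries. Between *Pelo*-/- MEFs and those labelled *Upf2*-/- 16 differed, against 6.89% of all genes called upward and 6.05% downward. *Hist1h2bp* was at 1.43, *H2bc15* at 1.16, *H3c6* at 1.11, *H2bc13* at 1.05 and *H3c7* at 0.96. *H3c6* and *H2bc15* share 72.2% and 76.4% of their 28-base coding words with *H3c4* (Hist1h3d) and *H2bc12* (Hist1h2bk), the genes closest to them.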

How the results depend on the processing

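Counts of replication-dependent genes called kept their size within 1.5 times in 142 comparisons under an alternative and not in 66, and class medians moved by less than the spread between libraries in 199 and by more in 9, of which 1 changed sign. In embryos 12 were called with DESeq2, 19 with no filter on low counts and 18 with the replicate block. In cerebella DESeq2 called 46 and the block 17. In RNA of *Hbs1l*-/- MEFs 26 were called with no filter, and in that of MEFs labelled *Upf2*-/- 14. In RNA of *Pelo*-/- MEFs 1 was called with DESeq2, 3 with no filter, 2 with the block and 1 with protein-coding transcripts only. Same-numbered libraries did not pair: their deviations correlated at -0.23 to 0.21, with no comparison over 0.1 in every pair. The cause of these differences was not tested.

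Leaving out 1 library at a time gave 0 to 35 genes in embryos, 0 to 47 in cerebella, 44 to 50, 59 to 62 and 24 to 41 in RPFs of *Hbs1l*-/-, *Pelo*-/- and labelled *Upf2*-/- MEFs, and 8 to 17, 0 to 3 and 3 to 12 in their RNA. Medians in RNA of *Hbs1l*-/-, *Pelo*-/- and labelled *Upf2*-/- MEFs ran from -0.23 to 0.30, from -0.43 to 0.09 and from -0.15 to 0.30, so each lay on either side of 0, and that of *Hbs1l*-/- reversed by more than the spread without control replicate 3 (-0.23). TE gave 4 to 10, 19 to 39 and 4 to 8, with medians of 0.30 to 0.79, 1.11 to 1.54 and 0.009 to 0.52. Differences gave 20 to 49 between embryos and cerebella (median -1.71 to -1.40), 28 to 47 between embryos and MEFs, 3 to 10 between *Pelo*-/- and *Hbs1l*-/-, 0 to 3 between labelled *Upf2*-/- and *Hbs1l*-/- and 9 to 27 between *Pelo*-/- and labelled *Upf2*-/- MEFs. The direct comparison of mutants, added after seeing the data, gave 28, 9 and 37 in these last 3. Values under alternatives were kept for 82 gene results, only of called members picked for the largest changes, a choice that makes a reversal unlikely. Of these 1065 values, 890 kept their call, 175 lost it and none reversed. Depth limits genes of few reads.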

Other observations

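*H2ac18* and *Hist1h4m*, which have no coding word of their own, were far apart between libraries of one group. In cerebella *H2ac18* was at 4.32, 20.9 and 17.8 CPM in cKO mice and 20.7, 26.6 and 3.79 in controls, and *Hist1h4m* at 3.02, 27.4 and 37.9 and 19.4, 18.7 and 1.65, so that one library of each genotype was far below the others in both genes. In embryos the germline gene *H2ac1* was at 3.64, 0.196 and 0.277 CPM in *Hbs1l*-/- and 18.8, 6.91 and 4.01 in Wildtype libraries (-2.56 ± 0.74, adjusted p = 0.0921).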
